A study of Homo sapiens with 8 samples.

Results

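The promoters described here are those in the most gene-crowded stretches of the human genome: windows of 2001 bp around annotated gene starts that had 40 or more other promoter windows centred within 500 kb on the same chromosome. A member's own window overlapped no other window, and chromosomes 10, 12, 19, X, Y and M were left out, as were olfactory receptor, keratin-associated protein, protocadherin and histone genes. Of 19957 windows 579 met the rule, which uses positions only and no read count. They lay on 11 chromosomes in 24 separate loci, with most on chromosome 16 (148), chromosome 17 (111) and chromosome 11 (79). A member had a median of 45 neighbours and at most 71, against a median of 12 over all windows. Of the 579, 441 could be given the symbol of 1 protein-coding gene by position, and the others keep their Ensembl identifier.

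The study asked whether loss of NuMA (labelled TDIF), a nuclear and mitotic spindle protein, alters oxidative damage along the genome of RPE1 cells, a telomerase-immortalised line derived from human retinal pigment epithelium. Damage was read with OGAP-seq beside input, which is unselected genomic DNA of the same kind of cells. There were 4 groups of 2 libraries: OGAP and input from cells given no doxycycline (WT), and OGAP and input from cells after doxycycline, which switched on the NuMA (TDIF) depletion (KD). Every KD library had doxycycline and no WT library did, so depletion and drug cannot be told apart. Nothing in the labels ties the 2 libraries of any group to separate cultures, so the p-values reflect the scatter among these 8 libraries alone, part of which may be technical. The libraries hold DNA, so neither the cell type nor the depletion itself could be checked from marker genes.

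Reactive oxygen oxidises guanine more readily than the other bases, and 8-oxoguanine is a common product. The glycosylase OGG1 removes it and leaves an abasic site, and AP-seq methods tag and pull down DNA that carries such sites. A window read more often in OGAP than in input is therefore relatively rich in captured DNA, and a window read less often is relatively poor in it. Gene-dense regions are in general rich in G, C and CpG, hold many housekeeping genes and replicate early. They also hold old tandem clusters, such as the major histocompatibility complex, the type I keratins and the epidermal differentiation genes, which many cell types keep silent.

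The promoters of 6 members are printed because these had the lowest p-values in WT cells, 3 in each direction, among named members with a promoter in the RefSeq table used here. Each runs from 250 bases before to 50 bases after the gene start of GRCh38.p14, 5′ to 3′ on the gene's strand, with every CG in capitals. The first 3 were higher in OGAP than in input and the last 3 were lower.
MYADML2: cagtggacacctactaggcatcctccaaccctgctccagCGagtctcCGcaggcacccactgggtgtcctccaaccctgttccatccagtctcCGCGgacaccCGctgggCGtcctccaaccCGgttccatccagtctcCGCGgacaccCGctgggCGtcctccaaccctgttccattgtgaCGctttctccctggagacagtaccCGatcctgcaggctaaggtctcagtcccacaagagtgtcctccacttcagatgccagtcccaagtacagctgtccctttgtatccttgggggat
MDP1: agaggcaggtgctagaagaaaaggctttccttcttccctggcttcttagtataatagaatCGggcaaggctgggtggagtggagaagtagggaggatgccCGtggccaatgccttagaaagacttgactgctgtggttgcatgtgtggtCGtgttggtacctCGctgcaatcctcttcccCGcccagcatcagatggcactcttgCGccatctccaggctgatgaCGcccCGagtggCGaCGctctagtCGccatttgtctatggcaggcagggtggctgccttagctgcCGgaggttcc
ABHD16A: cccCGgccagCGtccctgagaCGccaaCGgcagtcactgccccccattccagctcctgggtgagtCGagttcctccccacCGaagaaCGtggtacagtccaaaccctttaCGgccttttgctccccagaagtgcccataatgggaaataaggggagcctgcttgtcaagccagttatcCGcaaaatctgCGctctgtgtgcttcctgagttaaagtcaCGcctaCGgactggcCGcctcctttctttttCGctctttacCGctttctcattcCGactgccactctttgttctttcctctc
DRD4: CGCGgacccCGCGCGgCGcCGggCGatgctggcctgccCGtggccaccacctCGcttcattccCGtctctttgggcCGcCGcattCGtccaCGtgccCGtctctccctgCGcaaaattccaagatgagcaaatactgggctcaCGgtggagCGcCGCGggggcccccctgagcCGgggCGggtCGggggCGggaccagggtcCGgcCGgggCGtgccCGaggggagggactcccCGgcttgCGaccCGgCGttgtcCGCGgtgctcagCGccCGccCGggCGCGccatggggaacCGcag
RAB1B: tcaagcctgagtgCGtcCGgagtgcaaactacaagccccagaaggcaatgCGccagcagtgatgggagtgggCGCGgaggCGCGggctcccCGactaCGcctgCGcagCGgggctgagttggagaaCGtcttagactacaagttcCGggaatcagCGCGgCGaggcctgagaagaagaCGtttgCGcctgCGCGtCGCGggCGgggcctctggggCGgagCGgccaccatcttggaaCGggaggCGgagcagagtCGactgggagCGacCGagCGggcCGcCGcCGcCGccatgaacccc
RABGGTA: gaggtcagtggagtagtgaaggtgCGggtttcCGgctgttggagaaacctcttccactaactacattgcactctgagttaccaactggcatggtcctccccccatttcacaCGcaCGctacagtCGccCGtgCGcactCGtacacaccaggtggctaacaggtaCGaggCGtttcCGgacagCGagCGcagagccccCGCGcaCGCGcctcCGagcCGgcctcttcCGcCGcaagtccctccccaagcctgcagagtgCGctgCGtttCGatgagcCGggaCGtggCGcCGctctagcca

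These promoters lie at chr17:81947184-81947483 on the minus strand, chr14:24216017-24216316 on the minus strand, chr6:31702909-31703208 on the minus strand, chr11:637019-637318 on the plus strand, chr11:66268389-66268688 on the plus strand and chr14:24271548-24271847 on the minus strand. In the 3 that were higher in OGAP, the sequences held 13, 12 and 16 CG and had a G plus C content of 60.7%, 56.7% and 55.7%. The 3 that were lower held 41, 35 and 28 CG at 75%, 68.3% and 63.0%. Over the 22199 protein-coding promoters of the table the median was 21 CG and 62.3%. The motif GGGCGG, searched on both strands, was found 3 times in DRD4, 2 times in RAB1B and 1 time in MDP1, and 56.3% of all promoters hold it. A run of 4 GGG blocks separated by 1 to 7 bases, the pattern that can fold into a G-quadruplex, was found among these 6 only in DRD4, and in 30.3% of all promoters. CCAAT was found 1 time in MDP1 (34.7% of all promoters) and TATAAA in none of the 6 (9.47%), while each of the 6 holds GGG, as do 99.7% of all. With 6 sequences these are descriptions of single promoters. Only 64.6% of the members had a table promoter inside their window, too few to relate base composition to the counts over the whole set.

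The libraries held between 368593 and 771138 reads in all promoter windows, and the members took 3.98% ± 0.08 (SD, n = 2) of the WT OGAP reads and 4.13% ± 0.20 of the WT input reads. Their share of the KD libraries was 3.89% ± 0.06 for OGAP and 3.90% ± 0.05 for input. A typical member was covered by a median of 23 and 25 reads in the WT OGAP libraries and by 50 and 58 in the WT inputs. The KD OGAP libraries had medians of 38 and 29 reads per member and the KD inputs 48 and 44. Over the tested members the reads of the paired libraries of a group correlated at r = 0.625 (OGAP) and 0.709 (input) for WT, and at 0.452 (OGAP) and 0.568 (input) for KD, where the points share their library and its depth.

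Members were read somewhat more than other windows in all 8 libraries. The median member stood above the median tested window by 0.26 and 0.30 on the log2 scale of CPM, read counts scaled to library size, for the WT OGAP pair, by 0.28 and 0.26 for the KD OGAP pair and by 0.32 and 0.27 for the KD inputs. The 2 WT inputs differed, at 0.30 and 0.44, so that WT input replicate 2 stood apart from the other 7. Results that move when it is left out are given with and without it.

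**Figure D1:**
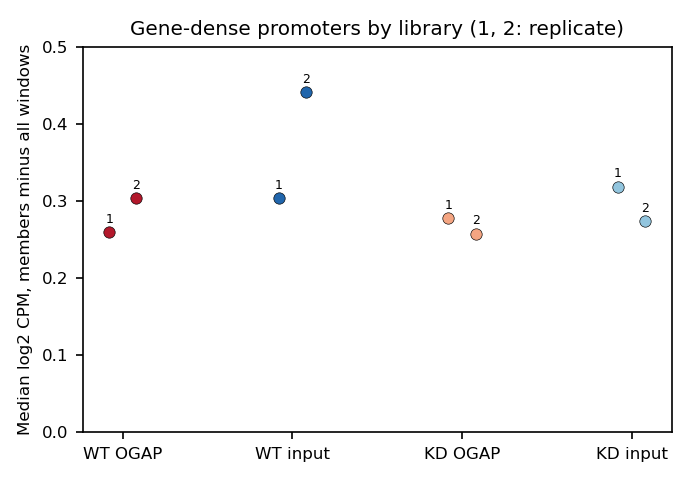
Median log2 CPM of the gene-dense promoters minus the median of all tested windows, 1 point per library and numbered by replicate, in the 4 groups. WT input replicate 2 stands highest at 0.44, and the other 7 libraries lie between 0.26 and 0.32.

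In WT cells gene-dense promoters differed between OGAP and input in both directions. Of the 573 tested members, those with enough reads, 58 were higher in OGAP (10.1%) and 42 were lower (7.33%) by edgeR's quasi-likelihood test at a Benjamini-Hochberg adjusted p under 0.05. Over all 17130 tested windows, 9.25% were higher and 4.45% were lower, 13.7% in all, where 17.5% of the members were called. The share of members called higher was near the background. The share called lower lay above it in this fit, but without WT OGAP replicate 2 the members had 35 higher and 13 lower calls, 6.10% and 2.26% beside 4.86% and 2.05% of all windows. Members also carried more reads than the table as a whole, with a median over the 8 libraries of 41.5 reads per window against 32.5, and the part of depth in their share of calls was not tested.

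The median log2 change of the members, OGAP over input in WT, was -0.10, beside -0.02 over all tested windows and -0.05 over 11553 other non-overlapping windows of the same chromosomes and symbols. Without WT input replicate 2 the members' median was 0.003, with 29 called higher and 13 lower, or 5.06% and 2.27% of members beside 3.94% and 1.19% of all windows. The whole-set shift toward lower values therefore rested on that library. DESeq2 called 27 higher and 10 lower, 4.71% and 1.75% beside 4.33% and 0.829% of all windows. Upper quartile scaling, which moved the median of all windows to -0.08, turned the split into 51 higher and 49 lower, 8.90% and 8.55% of members beside 8.23% and 5.48% of all windows.

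The medians of the members did not follow the number of neighbours. Windows of the same chromosomes with 0 to 9 neighbours had a median log2 change of -0.10 in WT, those with 10 to 19 had -0.01, and those with 30 to 39 had 0.05. Members with 40 to 49 neighbours had -0.14 (n = 409), those with 50 to 59 had -0.22 (n = 78) and those with 60 or more had 0.07 (n = 86). The share called lower was 4.45%, 4.53%, 4.72% and 5.56% in the 4 bands below the limit of 40, and 7.82%, 7.69% and 4.65% in the 3 bands of members. At the edge of the rule, 105 members with 40 or 41 neighbours had a median of 0.03, and 132 windows with 38 or 39 had 0.17. The 6 members with the most neighbours, 71, were C4A, CFB, DDAH2 and SAPCD1 of the major histocompatibility complex and DNAH2 and EFNB3 of chromosome 17. C4A, which encodes a complement component and has a near-identical copy, had too few reads to test, and none of the other 5 passed in any comparison.

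**Figure D2:**
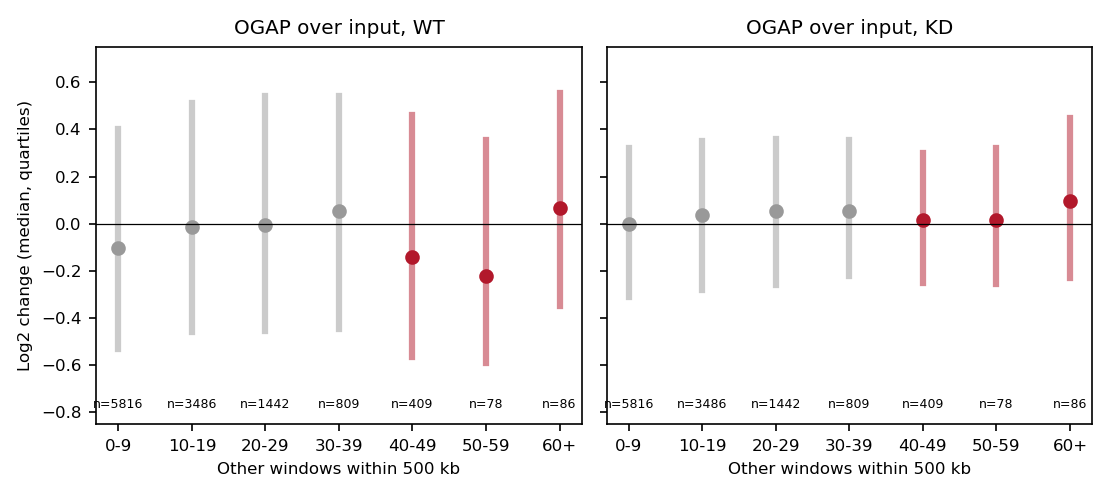
Median log2 change of OGAP over input (points) with lower and upper quartiles (bars) by number of other windows within 500 kb, in WT on the left and KD on the right. Grey bands lie outside the rule, red bands are members, and n is the number of tested windows. In WT the medians of the red bands are -0.14, -0.22 and 0.07.

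Of the 58 members higher in OGAP in WT, 10 named ones are given with their values, ordered by what their products do, receptors and proteins of specialised cells first. PDE6G (chr17:81662113-81664113), which encodes the inhibitory subunit of the rod photoreceptor phosphodiesterase, had 153 and 196 CPM (TMM-scaled) in the WT OGAP libraries and 46.1 and 51.9 in the WT inputs. Both OGAP libraries lay above both inputs, a log2 change of 1.83 ± 0.31 (approximate SE) with an edgeR adjusted p of 8.47e-06. NCR3 (chr6:31591986-31593986), the activating natural killer cell receptor NKp30, had 179 and 196 CPM in OGAP and 52.9 and 57.1 in input. The groups did not overlap, and the log2 change was 1.76 ± 0.30 (edgeR adjusted p = 1.02e-05). CTSW (chr11:65878808-65880808), cathepsin W, a protease of cytotoxic lymphocytes, stood at 185 and 177 CPM against 74.6 and 67.5, again without overlap and with a log2 change of 1.35 ± 0.28 (edgeR adjusted p = 0.000372). CLEC10A (chr17:7079308-7081308), a sugar-binding receptor of macrophages and dendritic cells, had 105 and 114 CPM in OGAP and 40.7 and 40.2 in input. Its inputs were nearly equal and both OGAP values lay above them, with a log2 change of 1.43 ± 0.34 (edgeR adjusted p = 0.00179). These 4 calls held under every setting tried. Over all 573 tested members the WT groups did not overlap in 346, with OGAP above input in 164 and below it in 182. Lack of overlap alone therefore does not set the called members apart. It was not counted over all tested windows, so whether these numbers are particular to gene-dense promoters was not tested.

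The other 6 encode enzymes and proteins of less defined role. VHLL (chr1:156298300-156300300), a homologue of the VHL tumour suppressor, had 185 and 114 CPM in WT OGAP and 54.2 and 32.4 in WT input. CES3 (chr16:66960236-66962236), a carboxylesterase, had 151 and 161 against 55.6 and 48.00. MYADML2 (chr17:81946234-81948234), a membrane protein, had 168 and 119 against 52.9 and 46.7. In all 3 both OGAP libraries lay above both inputs. Their log2 changes were 1.78 ± 0.32 for VHLL, 1.59 ± 0.30 for CES3 and 1.52 ± 0.31 for MYADML2, with edgeR adjusted p-values of 2.9e-05, 8.83e-05 and 0.0003.

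EGFL8 (chr6:32163582-32165582), a protein with EGF-like domains, had 162 and 148 CPM in WT OGAP and 62.4 and 63.6 in WT input. MDP1 (chr14:24215071-24217071), a magnesium-dependent phosphatase, had 131 and 122 against 59.7 and 36.3. ABHD16A (chr6:31702445-31704445), a lipase that acts on phosphatidylserine, had 76.7 and 148 against 37.97 and 45.4. None of the 3 overlapped, although the OGAP values of ABHD16A were themselves far apart. The log2 changes were 1.29 ± 0.30, 1.39 ± 0.32 and 1.43 ± 0.34 (edgeR adjusted p = 0.00119, 0.00133 and 0.00176). The call of MDP1 was lost without WT input replicate 2 (log2 change 1.07, edgeR adjusted p = 0.0856), and that of ABHD16A without WT OGAP replicate 2 (log2 change 0.87, edgeR adjusted p = 0.227). The lowest p-value of all members belonged to a window with no single symbol, ENSG00000167964 (chr16:2139802-2141802), with 281 and 214 CPM in WT OGAP beside 40.7 and 48.00 in WT input and a log2 change of 2.47 ± 0.29 (edgeR adjusted p = 6.39e-10). It was singled out after its values were seen.

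Of the 42 members lower in OGAP in WT, 10 named ones are likewise given. SCRT1 (chr8:144335282-144337282), a zinc finger repressor of neurons, had 34.1 and 34.3 CPM in WT OGAP and 102 and 118 in WT input. The OGAP values were nearly equal and lay below both inputs, with a log2 change of -1.68 ± 0.37 (edgeR adjusted p = 0.000786). ANO9 (chr11:441012-443012), a membrane protein of the anoctamin family, had 39.8 and 36.99 against 107 and 112, also without overlap (log2 change -1.51 ± 0.35, edgeR adjusted p = 0.00157). The calls of SCRT1 and ANO9 held under every setting tried, and those of the next 8 did not.

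FASN (chr17:82097333-82099333), the fatty acid synthase, had 56.8 and 13.2 CPM in WT OGAP and 102 and 118 in WT input. FBRS (chr16:30657430-30659430), fibrosin, had 68.2 and 21.1 against 127 and 112. OVOL1 (chr11:65786021-65788021), a zinc finger regulator of epithelial differentiation, had 42.6 and 21.1 against 90.9 and 92.1. In each of these WT OGAP replicate 2 was the lowest library, and no OGAP value reached an input value. Log2 changes were -1.67 ± 0.38, -1.44 ± 0.35 and -1.53 ± 0.39 (edgeR adjusted p = 0.001, 0.00284 and 0.00444). Without WT OGAP replicate 2 the calls were lost, at log2 changes of -0.95, -0.81 and -1.10 and edgeR adjusted p-values of 0.153, 0.217 and 0.137.

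FNDC10 (chr1:1599097-1601097), a membrane protein with a fibronectin type III domain, had 17.04 and 36.99 CPM in WT OGAP and 71.9 and 115 in WT input. DRD4 (chr11:636292-638292), the dopamine receptor D4, had 28.4 and 50.2 against 92.2 and 118. Here replicate 1 was the lower OGAP library, and the groups again did not overlap. The log2 changes were -1.77 ± 0.42 and -1.41 ± 0.35 (edgeR adjusted p = 0.00155 and 0.00343). Without WT OGAP replicate 1 they were -1.35 and -1.08 (edgeR adjusted p = 0.0559 and 0.0879), and without WT input replicate 2 they were -1.40 and -1.22 (edgeR adjusted p = 0.0868 and 0.0706).

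GRINA (chr8:143989057-143991057), a membrane protein of the family that includes Bax inhibitor, had 39.8 and 23.8 CPM in WT OGAP and 108 and 71.3 in WT input. RAB1B (chr11:66267532-66269532), a GTPase of transport from the endoplasmic reticulum to the Golgi, had 48.3 and 21.1 against 82.7 and 98.6. RABGGTA (chr14:24270740-24272740), a subunit of the transferase that attaches lipid to RAB proteins, had 42.6 and 29.1 against 94.9 and 90.8. All 3 had both OGAP values below both inputs, with log2 changes of -1.50 ± 0.40, -1.40 ± 0.38 and -1.38 ± 0.39 (edgeR adjusted p = 0.00529, 0.00676 and 0.00923). Without WT OGAP replicate 2 they were -1.17, -0.91 and -1.12, and none passed (edgeR adjusted p = 0.118, 0.207 and 0.13). GRINA was also lost without WT input replicate 1 (log2 change -1.18, edgeR adjusted p = 0.101), RAB1B without WT input replicate 2 (log2 change -1.27, edgeR adjusted p = 0.0776) and RABGGTA by DESeq2 (adjusted p = 0.0654).

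**Figure D3:**
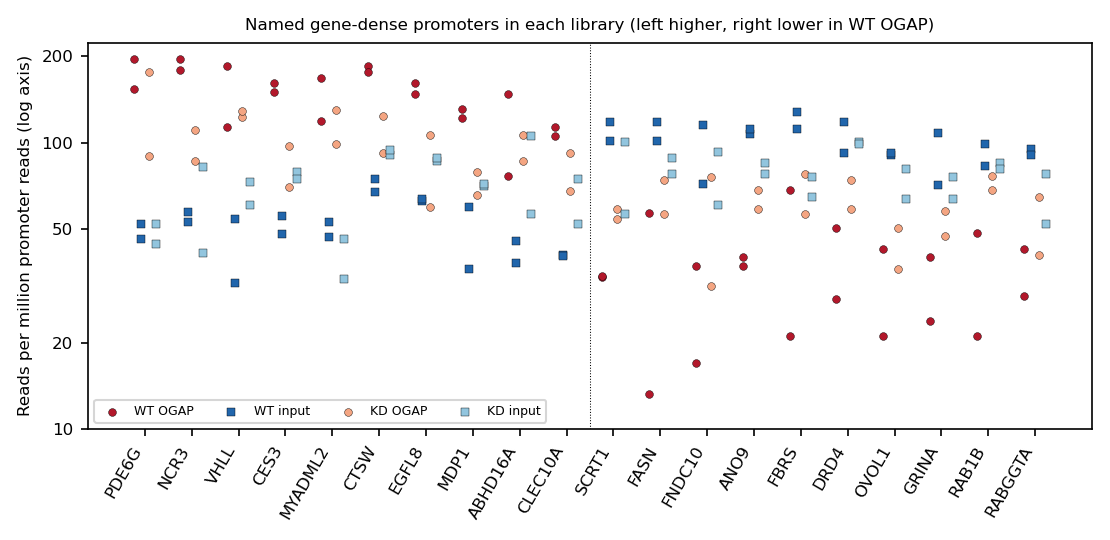
CPM (log axis) of the 10 higher and 10 lower named members in each of the 8 libraries, with circles for OGAP, squares for input, dark colours for WT and light colours for KD. In WT the circles and squares of a gene are apart, and in KD they lie closer together for most genes, PDE6G and MYADML2 excepted. The genes were chosen by their low WT p-values, which by itself makes the gaps wider in WT than in KD. No member passed the test of a difference between the WT and KD changes.

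Of the 24 loci, 17 held 10 or more tested members, and their medians in WT ran from -0.66 to 0.40. The lowest median in WT, -0.66, was that of 23 members between PLEC, a cytoskeletal linker, and C8orf82 (chr8:143877465-144530133), of which 21 had a negative log2 change, 5 were called lower and 0 higher. The mean member level of that locus was 68.4 and 57.8 CPM in WT OGAP and 86.6 and 99.4 in WT input. Both OGAP libraries lay below both inputs. Under the other settings of the fit, with each library left out in turn included, its median stayed between -0.72 and -0.45. SCRT1 and GRINA belong to it, as does SLC33A2 (log2 change -1.25 ± 0.36, edgeR adjusted p = 0.0109), a member of the solute carrier superfamily whose call was lost by DESeq2 and without WT OGAP replicate 2 (log2 change -0.98) or WT input replicate 2 (-0.96).

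The next lowest was a chromosome 11 locus from B4GALNT4 to GATD1 (chr11:368795-778489) with a median of -0.53 over 12 members, 1 called higher and 2 lower. Mean levels there were 71.5 and 70.2 CPM in WT OGAP and 83.8 and 107 in WT input, and the groups did not overlap. Its median ranged from -0.67 without WT input replicate 1 to -0.37 without WT input replicate 2. The member called higher was PTDSS2, a phosphatidylserine synthase, at 159 and 153 CPM in WT OGAP beside 65.1 and 98.6 in WT input (log2 change 0.93 ± 0.29, edgeR adjusted p = 0.0186), a call lost by DESeq2 and without either WT OGAP replicate or WT input replicate 1 (log2 changes 0.89, 0.95 and 0.65). A chromosome 9 locus from NOTCH1, a receptor of cell fate signalling, to NSMF (chr9:136544863-137460335) had a median of -0.45 over 41 members, 3 called higher and 6 lower, and a range over settings from -0.54 to -0.28.

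At the other end, 11 members from SLC17A1 to BTN2A1 on chromosome 6 (chr6:25831060-26502220), a stretch that also holds histone genes left out by the rule, had a median of 0.40. Mean levels were 54.5 and 63.9 CPM in WT OGAP and 50.2 and 41.98 in WT input, without overlap, but the median was 0.07 without WT input replicate 2. Of the butyrophilin genes there, which take part in gamma-delta T cell recognition, BTN3A1 passed at 128 and 95.1 CPM against 55.6 and 49.3 (log2 change 1.08 ± 0.34, edgeR adjusted p = 0.0222). The other 4 did not pass: BTN3A2 at 0.40 ± 0.46, BTN2A1 at 0.07 ± 0.37, BTN2A2 at 0.02 ± 0.37 and BTN3A3, on the negative side, at -0.69 ± 0.45. The call of BTN3A1 was lost by DESeq2 and without WT OGAP replicate 1 or either WT input (log2 changes 0.85, 1.16 and 0.99).

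A chromosome 7 locus from LAMTOR4 to TRIP6 (chr7:99928621-100868137) had a median of 0.37 over 20 members, with 4 called higher, 0 lower and a range over settings from 0.23 to 0.37. Mean levels there were 95.7 and 85.6 CPM in WT OGAP and 73.1 and 77.4 in WT input, and the groups did not overlap. Of its 4 called members, 3 have a gene symbol: SPACDR at 165 and 153 against 89.5 and 51.9 CPM, GAL3ST4, a sulfotransferase acting on galactose, at 128 and 122 against 66.5 and 49.3, and MOSPD3 at 131 and 135 against 59.7 and 86.9. In each the OGAP values lay above the inputs, with log2 changes of 1.17 ± 0.30, 1.11 ± 0.31 and 0.85 ± 0.30 (edgeR adjusted p = 0.00367, 0.00969 and 0.0453). Without WT input replicate 2 none of the 3 passed (log2 changes 0.82, 0.90 and 1.14). DESeq2 did not call GAL3ST4 or MOSPD3 (adjusted p = 0.0577 and 0.189). Without WT OGAP replicate 1 GAL3ST4 and MOSPD3 did not pass (1.06 and 0.86). MOSPD3 did not pass under upper quartile scaling or with no count filter either (edgeR adjusted p = 0.063 and 0.0507), and MOSPD3 was also lost without WT OGAP replicate 2 (0.83), WT input replicate 1 (0.60), KD input replicate 1 (0.84) or KD input replicate 2 (0.84).

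The major histocompatibility complex, from HLA-C to TSBP1 (chr6:31179732-32372913), had a median of 0.27 over 44 tested members, 5 called higher and 1 lower, and stayed between 0.15 and 0.33 under the other settings. Members with up to 71 neighbours lie here, and NCR3, EGFL8 and ABHD16A are among the higher ones. The locus with the largest number of members, from LUC7L to MEFV on the short arm of chromosome 16 (chr16:228464-3264799), had 84 tested members, 8 called higher and 4 lower, and a median of -0.16 that became 0.003 without WT input replicate 2. The medians of the loci from DHRS4 to GZMH on chromosome 14 (-0.15) and from CDH16 to CARMIL2 on chromosome 16 (-0.19) also turned positive without that library, to 0.02 and 0.05. The type I keratin locus (median 0.03, 35 tested, 2 higher and 0 lower) and the epidermal differentiation locus (0.02, 26 tested, none called) were near 0, and both changed sign under other settings. The called members were not evenly spread, since 10 of 25 members between TTLL10 and CDK11B at the end of chromosome 1 were called, 4 higher and 6 lower, beside 0 of 26 in the epidermal differentiation locus. These 2 loci also differed in reads, with median counts per window of 46.5 and 25.3, and the part of depth in this was not tested.

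**Figure D4:**
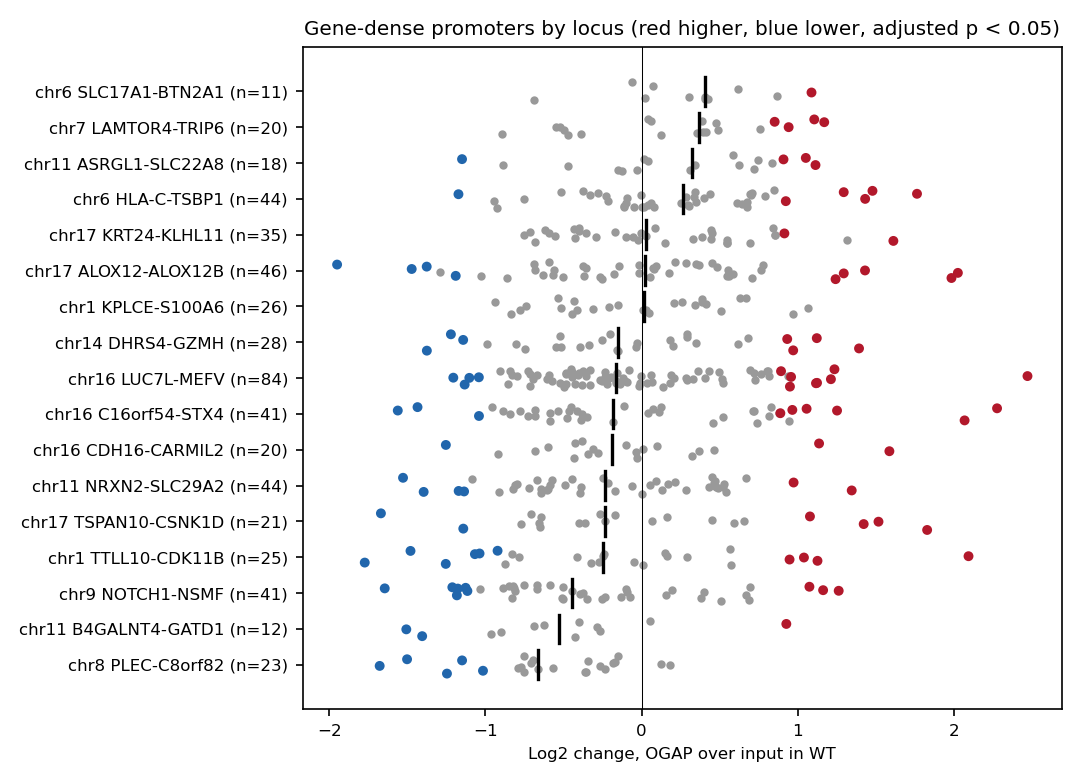
Log2 change of OGAP over input in WT for each tested member, by locus (first and last named gene, n tested), with red for called higher, blue for called lower, grey for not called and a black bar for the median. Medians run from -0.66 at PLEC to C8orf82 up to 0.40 at SLC17A1 to BTN2A1, and single members spread over more than the range of the medians in each locus.

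Neighbours within a locus resembled each other little. Over 549 pairs of a member and the next tested member, a median of 20.2 kb apart, the log2 changes in WT correlated at r = 0.092, and 53.7% of pairs had the same sign. Over 11045 pairs of neighbouring non-overlapping windows of the whole table, a median of 68.2 kb apart, these values were 0.062 and 52.3%. The points of both sets share their libraries. In several places the next called member of a locus was called in the opposite direction, in all but the first of these cases with uncalled members in between. ANO9 (log2 change -1.51) and PTDSS2 (0.93) were 6.26 kb apart, and DRD4 (-1.41), the next called member, lay 189 kb further on. On chromosome 14 the called members TM9SF1 (-1.14), MDP1 (1.39) and RABGGTA (-1.38) lay 20.4 kb and 55.7 kb from each other, in that order. In the major histocompatibility complex EGFL8 (1.29) and PBX2 (-1.17) were 25.6 kb apart. The call of PBX2 was lost by DESeq2 and without WT OGAP replicate 1 or 2 or WT input replicate 2 (log2 changes -1.18, -1.18 and -0.96), and that of TM9SF1 by DESeq2 (adjusted p = 0.154) and without any 1 of the 4 WT libraries or KD input replicate 2 (log2 changes between -1.50 and -0.85).

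Families were grouped by the start of the gene symbol alone, and by family the members showed few calls. Of 23 keratins, the intermediate filament proteins of epithelia, 1 was higher in WT OGAP and 0 lower, with a median log2 change of 0.15 beside -0.02 for all tested windows. That one was KRT25, an inner root sheath keratin of hair, at 76.7 and 81.9 CPM in WT OGAP beside 18.99 and 32.4 in WT input, without overlap (log2 change 1.61 ± 0.40, edgeR adjusted p = 0.00322, lost without WT input replicate 1 at 1.27). None of 9 tested late cornified envelope and SPRR genes, which build the cornified layer of skin, was called (median 0.04), nor was any of 7 tested genes of the list for the major histocompatibility complex (median 0.28).

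Of 14 solute carriers, 1 was called higher and 1 lower, with a median of -0.0007. SLC35G6, the higher one, had 122 and 84.6 CPM in WT OGAP and 27.1 and 24.6 in WT input, so that both OGAP values lay above both inputs (log2 change 1.98 ± 0.38, edgeR adjusted p = 8.47e-05), and its call held under every setting tried. The lower one was SLC33A2, described above. Among genes named TMEM, a name given to transmembrane proteins of many kinds, TMEM179B had 168 and 106 CPM in WT OGAP against 56.96 and 73.9 for the inputs (1.05 ± 0.31). TMEM88 had 17.04 and 7.93 against 44.8 and 51.9 (-1.95 ± 0.58), resting on 6 and 3 OGAP reads. Neither overlapped between groups, TMEM179B being higher in OGAP and TMEM88 lower, with edgeR adjusted p-values of 0.0143 and 0.014. Both were lost by DESeq2. TMEM179B was also lost without WT OGAP replicate 1 (0.68) or WT input replicate 1 (0.87), and TMEM88 without WT OGAP replicate 2 (-1.49) or WT input replicate 2 (-1.84).

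Of 7 members whose symbols start with ZNF, ZBTB or ZSCAN, names given to zinc finger proteins, 2 were higher (median 0.19): ZBTB3 at 131 and 108 CPM in WT OGAP beside 52.9 and 57.1 in WT input (1.11 ± 0.33) and ZNF771 at 139 and 103 against 78.7 and 51.9 (0.89 ± 0.32). Of 3 TRIM genes, a family of ubiquitin ligases, TRIM34 was higher at 102 and 95.1 against 44.8 and 51.9 (1.02 ± 0.34). OGAP exceeded input in every library pair of these 3, and the edgeR adjusted p-values were 0.0131, 0.0476 and 0.0312. All 3 were lost by DESeq2 and without WT OGAP replicate 1 (0.96, 0.65 and 0.96) or WT input replicate 2 (1.16, 0.61 and 1.13). ZBTB3 was also lost without WT input replicate 1 (1.05), TRIM34 without that library or WT OGAP replicate 2 (0.91 and 1.08), and ZNF771 without WT OGAP replicate 2 (1.09) or either KD input (0.88 each). The 2 members of the LY6 list (median 0.11), 2 with symbols starting PSM (-0.42; PSME1, a proteasome activator subunit, and PSMC3IP, a meiotic recombination factor), 2 mitochondrial ribosomal proteins (-0.13), 2 polymerase II and general factors (0.47), 1 potassium channel (-0.39) and 1 S100 gene (-0.21) held no call in WT. The symbol prefixes used for respiratory chain genes, serpins, beta-defensins and chemokines matched 0 members, although CYC1, a cytochrome of the respiratory chain, is a member outside those prefixes.

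In KD cells few members differed between OGAP and input. Of 573 tested members 4 were higher (0.698%) and 2 lower (0.349%), beside 0.63% and 0.105% of all tested windows (0.736% in all), and the members' median log2 change was 0.02 against 0.03. MYADML2 had 129.7 and 99.3 CPM in KD OGAP beside 46.1 and 33.5 in KD input. PDE6G had 90.1 and 176 against 51.9 and 44.2. GAST (chr17:41711325-41713325), the gene of the stomach hormone gastrin, had 123 and 122 against 47.5 and 62.5. In each of the 3 both OGAP libraries lay above both inputs, with log2 changes of 1.52 ± 0.32, 1.44 ± 0.31 and 1.15 ± 0.30 (edgeR adjusted p = 0.00785, 0.00811 and 0.0394). The fourth was ENSG00000167964 at 109.9 and 160.3 against 67.7 and 50.3 CPM (1.18 ± 0.29, edgeR adjusted p = 0.0293). All 4 were higher in WT as well. The OGAP and input groups of KD did not overlap in 248 of the 573 tested members. As for WT, this was not counted over all tested windows. GAST had a WT log2 change of 0.91 ± 0.30 (edgeR adjusted p = 0.0261), a call lost by DESeq2 and without WT OGAP replicate 2 (0.68) or either WT input (0.77 and 1.06).

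MRPL28 (chr16:369528-371528), a protein of the mitochondrial ribosome, was lower in KD, with 43.2 and 18.1 CPM in KD OGAP beside 96.5 and 70.1 in KD input. Its groups did not overlap, and the log2 change was -1.39 ± 0.37 (edgeR adjusted p = 0.0459), beside -0.42 ± 0.34 in WT, which did not pass. The other lower member was ENSG00000184163 (chr1:1245723-1247723), at 66.7 and 47.4 against 117 and 136 CPM (-1.12 ± 0.30, edgeR adjusted p = 0.0483). Leaving out KD input replicate 1, or KD input replicate 2, removed most KD calls over all tested windows, those of all members included. The log2 changes were then 1.55 and 1.32 for PDE6G, 1.40 and 0.97 for ENSG00000167964, 0.96 and 1.35 for GAST, -1.15 and -1.61 for MRPL28 and -1.24 and -1.02 for ENSG00000184163. Of the 6, without KD OGAP replicate 2 only MYADML2 passed, and PDE6G (log2 change 0.90), ENSG00000167964 (0.89), GAST (1.15), MRPL28 (-0.95) and ENSG00000184163 (-0.92) did not. Without KD input replicate 1 and without KD input replicate 2 the log2 changes of MYADML2 were 1.76 and 1.31. It also did not pass without KD OGAP replicate 1 (1.30). That library decided the calls of GAST (1.14 without it) and ENSG00000184163 (-1.41) too. Without WT input replicate 2, GAST (1.12), MRPL28 (-1.43) and ENSG00000184163 (-1.16) did not pass, and the last was also lost without WT input replicate 1 (-1.14).

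The WT and KD comparisons share no library, so the members can be set side by side. Over the 573 tested members the log2 changes of OGAP over input in WT and in KD correlated at r = 0.547. This is a description over windows that share the 2001 bp sequence they count. The correlation was not computed over all tested windows, so whether it is particular to members was not tested. Of the 58 members that WT cells placed higher, 54 were positive in KD, as were 303 of all 573. Of the 42 that WT cells placed lower, 36 were negative in KD, as were 270 of 573. The median in KD was 0.49 for the first set and -0.31 for the second. In WT, whose values chose the members of both sets, the medians were 1.13 and -1.21. NCR3 had 86.5 and 111 CPM in KD OGAP beside 82.1 and 41.1 in KD input, a log2 change of 0.66 ± 0.31. CES3 had 70.3 and 97.1 and 79.2 and 74.6 (0.11 ± 0.30), and EGFL8 had 59.5 and 106 and 86.4 and 88.4 (-0.10 ± 0.30). On the lower side SCRT1 had 54.1 and 58.7 and 101 and 56.4 (-0.49 ± 0.33), with overlapping groups, and FASN had 73.9 and 56.4 and 77.8 and 88.4 (-0.34 ± 0.33).

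The locus medians kept their sign in KD at both ends of the WT order, but not at all loci between. From PLEC to C8orf82 the KD median was -0.18, from B4GALNT4 to GATD1 it was -0.33, and from NOTCH1 to NSMF it was -0.13. It was 0.26 from SLC17A1 to BTN2A1, 0.07 from LAMTOR4 to TRIP6 and 0.18 in the major histocompatibility complex. On chromosome 11 the 18 tested members from ASRGL1 to SLC22A8 had a median of 0.325 in WT and 0.15 in KD. Other locus medians differed in sign, at -0.19 in WT and 0.23 in KD from CDH16 to CARMIL2. From NRXN2 to SLC29A2 they were -0.23 and 0.05, and from TSPAN10 to CSNK1D -0.23 and 0.01. They were -0.15 and 0.05 from DHRS4 to GZMH, and 0.02 and -0.05 in the epidermal differentiation locus. The PLEC to C8orf82 mean levels were 75.99 and 67.6 CPM in KD OGAP beside 81.8 and 75.6 in KD input, with KD OGAP replicate 1 above the lower input. Those from LAMTOR4 to TRIP6 were 71.5 and 70.8 against 65.03 and 67.2, with both OGAP libraries above both inputs. The medians of the loci from SLC17A1 to BTN2A1 and from LAMTOR4 to TRIP6 turned negative when a single KD input was left out (-0.05 without replicate 1 and -0.001 without replicate 2), so at these 2 loci the sign in KD rested on 1 library. The KD median from ASRGL1 to SLC22A8 likewise became -0.013 without KD OGAP replicate 2.

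**Figure D5:**
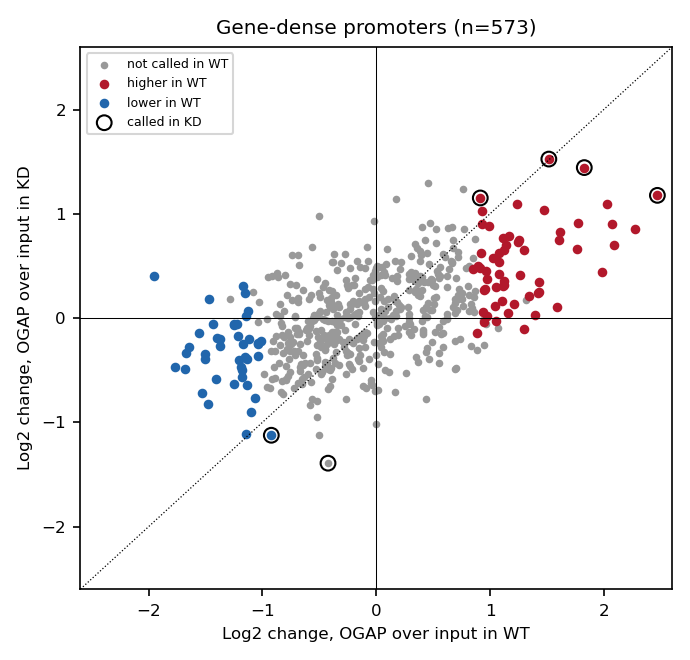
Log2 change of OGAP over input in WT (x axis) and in KD (y axis) for the 573 tested members, with members called in WT in red (higher) and blue (lower), rings around the 6 called in KD, and a dotted line of equal change. Of the red points 54 of 58 lie above 0 on the y axis and of the blue points 36 of 42 lie below it, most of both nearer to 0 than the dotted line. Red and blue points were chosen by their WT values, which by itself makes their changes larger in WT than in KD.

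Whether depletion changed the enrichment itself was tested as the interaction, the KD log2 change of OGAP over input minus that in WT. No member passed by edgeR (smallest adjusted p = 0.324) or by DESeq2, and 0.00584% of all tested windows were called. An unadjusted edgeR p under 0.05 was found for 63 members (10.99%) and for 8.144% of all tested windows. The members' median was 0.07 beside 0.02 for all windows, and -0.006 without WT input replicate 2. Among members with a gene symbol and a mean count at or above the median of tested windows, the lowest p-values with a positive value belonged to AP5B1 (1.48 ± 0.48), a subunit of an adaptor complex of endosomes, ADCK5 (1.39 ± 0.47), a predicted mitochondrial kinase, and ALOX12 (1.65 ± 0.56), a lipoxygenase. In the same set those with a negative value belonged to CES3 (-1.48 ± 0.43), EGFL8 (-1.40 ± 0.42) and MDP1 (-1.36 ± 0.45). With a median SE of 0.48 over the members, values of this size could not be told from 0 after adjustment.

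Within OGAP libraries alone no member differed between KD and WT by edgeR (smallest adjusted p = 0.211) or DESeq2. Of all tested windows 0.0175% were called in each direction (0.035% in all). An unadjusted edgeR p under 0.05 was found for 73 of 573 members (12.74%) and for 10.55% of all tested windows. The members' median log2 difference was -0.02 beside 0.01 over all windows. By the same choice of symbol and count, and among the lowest p-values on the positive side, TM9SF1 had 36.9 and 23.8 CPM in WT OGAP and 72.1 and 76.7 in KD OGAP (1.29 ± 0.42). ALOX12 had 34.1 and 15.9 and 54.1 and 76.7 (1.38 ± 0.45), and PBX2, a homeodomain cofactor, had 34.1 and 34.3 and 82.9 and 69.97 (1.16 ± 0.39). These 3 had both KD values above both WT values without passing the test. In this comparison the groups did not overlap in 241 of the 573 tested members, a count not made over all tested windows. On the negative side FAM234A had 165 and 159 and 70.3 and 90.3 (-1.02 ± 0.30), NCR3 had 179 and 196 and 86.5 and 111 (-0.93 ± 0.29) and EGFL8 had 162 and 148 and 59.5 and 106 (-0.93 ± 0.30), again without overlap. The locus from LAMTOR4 to TRIP6 had a median of -0.46 here, and it stayed between -0.53 and -0.30 under the other settings of the fit. In the inputs of the same locus the KD minus WT median was -0.19, with 4 of 20 members positive, and the median interaction was -0.22. The locus was described because its WT median of OGAP over input was among the highest. The same WT OGAP libraries enter the OGAP difference and the interaction. That choice by itself makes both values lower, under every setting of the fit. This comparison shares libraries with both the WT and the KD comparison above.

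In the inputs, which carry no selection for damage, no member differed between KD and WT by edgeR (smallest adjusted p = 0.999) or DESeq2. Of all windows 0% were called. An unadjusted edgeR p under 0.05 was found for 35 members (6.108%) and for 4.413% of all tested windows. The members' median was -0.09 beside -0.01 over all windows, and -0.01 without WT input replicate 2. Of the members chosen in that way, ABHD16A had 37.97 and 45.4 CPM in WT input and 56.2 and 105 in KD input (0.94 ± 0.33), NYNRIN had 46.1 and 63.6 and 95.1 and 94.4 (0.78 ± 0.31) and LST1 had 44.8 and 62.3 and 83.5 and 101 (0.78 ± 0.31). On the other side KCTD5 had 90.9 and 77.8 and 41.8 and 39.6 (-1.05 ± 0.33), ELMO3, an engulfment and motility protein, had 90.9 and 121 and 63.4 and 50.3 (-0.89 ± 0.30), and KRT17, a keratin of stressed epithelium, had 92.2 and 125 and 53.3 and 71.6 (-0.80 ± 0.30). All 6 were without overlap between the groups, as were 215 of the 573 tested members in this comparison. Here too no count was made over all tested windows.

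Of the 579 members 6 were too thinly read to test. SULT1A3 and C4B had no read in any library, and C4A had only 2 reads, both in KD input replicate 1. These genes have near-identical copies elsewhere in the genome, so their counts are uncertain. LCE1D, a late cornified envelope gene, had 0 reads in all 4 inputs, but 6 and 2 in the WT OGAP libraries and 4 and 6 in those of KD. The remaining 2, ENSG00000258130 and ENSG00000198064, had 4 reads each over the 8 libraries.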

How the data were processed

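OGAP-seq and input DNA of RPE1 cells were analysed in 8 libraries. The authors deposited raw read counts per promoter window of 2001 bp, whole numbers that were not normalised, per the file headers and values. Reads were handled with BWA 0.7.17-r1188, bedtools, featureCounts and MACS2 on hg38, per the submitters' processing notes, which give no parameters, duplicate handling or multi-mapping rule. Windows with near-identical copies are therefore uncertain. The metagene profiles, which sum coverage over all genes, were not used.

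The table names windows by Ensembl identifier and position. A symbol was given where exactly 1 protein-coding gene of the RefSeq table (GRCh38.p14) started within 500 bp of the window's centre on its strand. This named 14916 windows, and after a shift of all positions by 200 kb only 183. Of 1428 windows with 40 or more neighbours, 428 lay on left-out chromosomes, 305 overlapped another window and 116 belonged to left-out families, 13 of which had no symbol and were assigned through the family gene they touch. This naming replaced a first one from promoter starts before any model was fitted. Members, families and rules were chosen with earlier results of these data known.

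All windows and 8 libraries were fitted together with edgeR 4.0.16 (4 group means, TMM scaling, filterByExpr, quasi-likelihood F tests, common biological coefficient of variation 0.178) in R 4.3.3. P-values were adjusted by Benjamini-Hochberg over the 17130 tested windows, with a threshold of 0.05. CPM are counts scaled by library total and TMM factor. SE is the log2 change divided by the square root of F, an approximation. The script was tested on simulated data. Libraries of 368593 to 771138 reads left a median of 23 to 58 reads per member, which limits precision for single windows.

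Named members were, in each comparison, the 10 with the lowest p in each direction among called members with a symbol and a mean count at or above the median of tested windows, or 3 where none was called. Added to these were the members with the most neighbours, the 3 lowest-p members of the 2 lowest and 2 highest loci, and called members of gene families, some of which are not reported here. Loci are members chained at 500 kb or less. Members called in opposite directions were picked out after their values were seen, as were called windows without a symbol. The alternatives were DESeq2 1.42.0, other scalings, no count filter, a replicate block, only the compared groups, each library left out and other member rules. Same-numbered libraries deviated from their group means with correlations of -0.04 to 0.024. With so few reads per window, such values cannot tell whether the numbers pair the libraries, and the main fit used no pairing.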

Additional observations from a re-analysis of the deposited data

How the results depend on the processing

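Percent of members called is given over tested members. In WT it was 6.46% by DESeq2 (17.5% by edgeR) and, with each library left out in turn, 7.33% to 18.0%. In KD it was 0% under a rule of 50 or more neighbours and 0% to 1.05% with each library left out. For KD against WT within OGAP it was 0.114% with chromosomes 10, 12 and 19 counted as members. It kept to 0% for KD against WT in input and for the interaction under all settings run.

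The median log2 change in KD was -0.027 under upper quartile scaling, 0.067 with 50 or more neighbours and -0.014 to 0.027 with a library left out. For KD against WT in OGAP these were 0.039, 0.023 and -0.066 to 0.0014, and -0.073 with chromosomes 10, 12 and 19 added. In WT it was -0.16 to 0.003 with a library left out. The cause of these moves was not tested.

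Of promoter reads in non-overlapping windows only, members took 4.30% in OGAP and 4.45% in input for WT, and 4.18% and 4.21% for KD. Without mitochondrial windows the shares were 4.07% in OGAP and 4.25% in input for WT, and for KD 3.98% in OGAP and 4.02% in input. A smaller denominator raises them by construction.

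Whether the replicate numbers pair the libraries could not be told. With the replicate number as a block, 55 members were higher and 38 lower in WT (16.2%, beside 8.76% and 3.98% of all windows). In KD 4 were higher and 0 lower with that block (0.698%, beside 0.514% and 0.0525%). The calls of MRPL28 and ENSG00000184163 in KD and of TM9SF1 and ZNF771 in WT did not pass there. GAST in KD did not pass under size factors of the relative log expression kind or upper quartile scaling (edgeR adjusted p = 0.0537 and 0.0593, range over its alternatives 0.0288 to 0.393).

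Recomputed under the settings of the fit were the values by which a member was named or called. None of these changed sign, and 120 recomputed calls of named members no longer passed. Other printed values, such as those of CES3 and EGFL8 in KD, were not recomputed. Locus medians without each library were an alternative chosen after seeing the data. The planned correction for base composition was not run, since 64.6% of members had a promoter sequence and 80% was the minimum set. The depth of 23 to 58 reads per median member and 2 libraries per group left a median SE of 0.34 for a member's log2 change in WT.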
